A study of Rattus norvegicus with 9 samples.

Results

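Cell to cell adhesion genes were followed through 3 growth forms of the rat colon carcinoma line CC-531. The genes were the classical cadherins Cdh1, Cdh2 and Cdh3, the catenins Ctnnb1, Ctnna1, Ctnnd1 and Jup, and the epithelial adhesion gene Epcam. They were taken by gene symbol from the count table, and all 8 were among its 34322 genes. The line came from WAG/Rij rats. It was sequenced as cells in culture (passages p5, p8 and p11), as organoids grown in matrigel (p7, p8 and p9) and as ex vivo tumors (1, 2 and 3), with 3 libraries per sample type and 9 in all. The tumors grew in the peritoneum of WAG/Rij rats that were 8 to 10 weeks old and had received CC-531 cells by intraperitoneal injection. No treatment of the sequenced samples is named. The tumors hold host tissue beside the carcinoma cells, the labels do not say which animal or passage each tumor came from, and all samples derive from 1 line. The protocol speaks of 3 passages for each sample type, tumors included, without saying whether the 3 tumors grew in separate animals, and every p-value here reflects library spread alone, part of which can be technical.

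Adherens junctions hold neighboring epithelial cells together. A classical cadherin spans the membrane and binds cadherins of the next cell, while its tail carries p120-catenin and either beta-catenin or plakoglobin, and alpha-catenin links that complex to actin. Beta-catenin also acts in WNT signaling when it is not held at the membrane, and loss of E-cadherin with gain of N-cadherin is widely used as a marker of epithelial-mesenchymal transition in carcinoma.

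Total counts per library were 12601774 to 24335921, with overlap between the sample types. Epithelial genes were present throughout: Krt8, a keratin of simple epithelium, was at 900 to 2450 CPM (counts per 1000000, scaled by TMM) and Cdx2, an intestinal transcription factor, at 33.8 to 134 CPM over the 9 libraries. The ex vivo tumors also carried RNA of other cell types. All 10 fibroblast markers were detected in them with a summed level of 4560 to 9390 CPM, against 4.12 to 15.6 CPM in the cultures. All 10 macrophage markers summed to 3330 to 3900 CPM against 2.86 to 5.88, and all 10 endothelial markers to 207 to 348 CPM against 17.3 to 57.5. For the 8 mesothelial markers the ranges overlapped, at 382 to 490 CPM in the tumors and 202 to 456 in the cultures, where Msln gave most of the sum. Ptprc, the common leukocyte antigen, had no count in any organoid library and 3 counts over the cells. In bulk RNA, fewer cells of a type and less RNA per cell cannot be told apart. Organoid p7 stood apart from p8 and p9 in expression, and results that rest on it are given with and without it.

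Ctnnb1, Ctnnd1, Jup and Epcam had an entry in the RefSeq promoter table (build GRCr8). CAGGTG, an E-box, was found on either strand in 2 of these 4 windows, those of Epcam and Jup (101 bases before its start), and not in those of Ctnnb1 and Ctnnd1. The Epcam promoter is printed as the example of a window with this E-box. Repressors that can bind such an E-box are described with their values further on, and their binding here was not tested. The window runs over the 250 bases before the gene start, at chr6:12649679-12649928 on the minus strand, and capitals mark its only match to CAGGTG on either strand.

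Epcam promoter: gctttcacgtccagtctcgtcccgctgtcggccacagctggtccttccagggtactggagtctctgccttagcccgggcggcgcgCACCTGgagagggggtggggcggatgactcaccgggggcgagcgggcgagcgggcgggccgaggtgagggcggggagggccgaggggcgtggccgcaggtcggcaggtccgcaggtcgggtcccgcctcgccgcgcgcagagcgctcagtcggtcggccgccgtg

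The match reads CACCTG on the strand of the gene and begins 165 bases before the gene start. The same motif was in 15.9% of 33469 rat promoters of this length, so its presence is a description of these letters and not of binding.

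Of the 8 genes, 7 passed the filter on low counts and Cdh2 did not. None of the 7 was called in any of the 3 comparisons by edgeR at an adjusted p under 0.05. Over all 13331 genes tested, 10.7% were called between organoids and cells, 19.2% between ex vivo tumors and cells, and 22.7% between ex vivo tumors and organoids. At an unadjusted p under 0.05, edgeR gave 1 (Cdh3), 2 (Ctnna1 and Epcam) and 3 (Ctnna1, Ctnnd1 and Jup) of the 7. Of all 13331 genes tested, 3797, 4375 and 5039 were under this unadjusted edgeR threshold. DESeq2 called 1, 1 and 2 of the 7. Weighted limma-voom, which gave organoid p7 a weight of 0.151 against 4.67 and 5.69 for p8 and p9, called 5, 4 and 4. It also called many more of all genes than edgeR did, with counts given in the last section. The median log2 fold change of the 7 was 0.31, 0.04 and 0.13 in the same order, beside 0.03, 0.00 and 0.03 over all genes tested. By direction, 6.44% of all genes tested were called higher and 4.29% lower in organoids against cells, 12.4% and 6.78% in ex vivo tumors against cells, and 12.2% and 10.5% in ex vivo tumors against organoids. Libraries did not overlap for 3 of the 7 between organoids and cells (31.8% of all genes tested), for 4 between ex vivo tumors and cells (41.0%) and for 3 between ex vivo tumors and organoids (41.2%), counts that are given as a description.

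**Figure D1:**
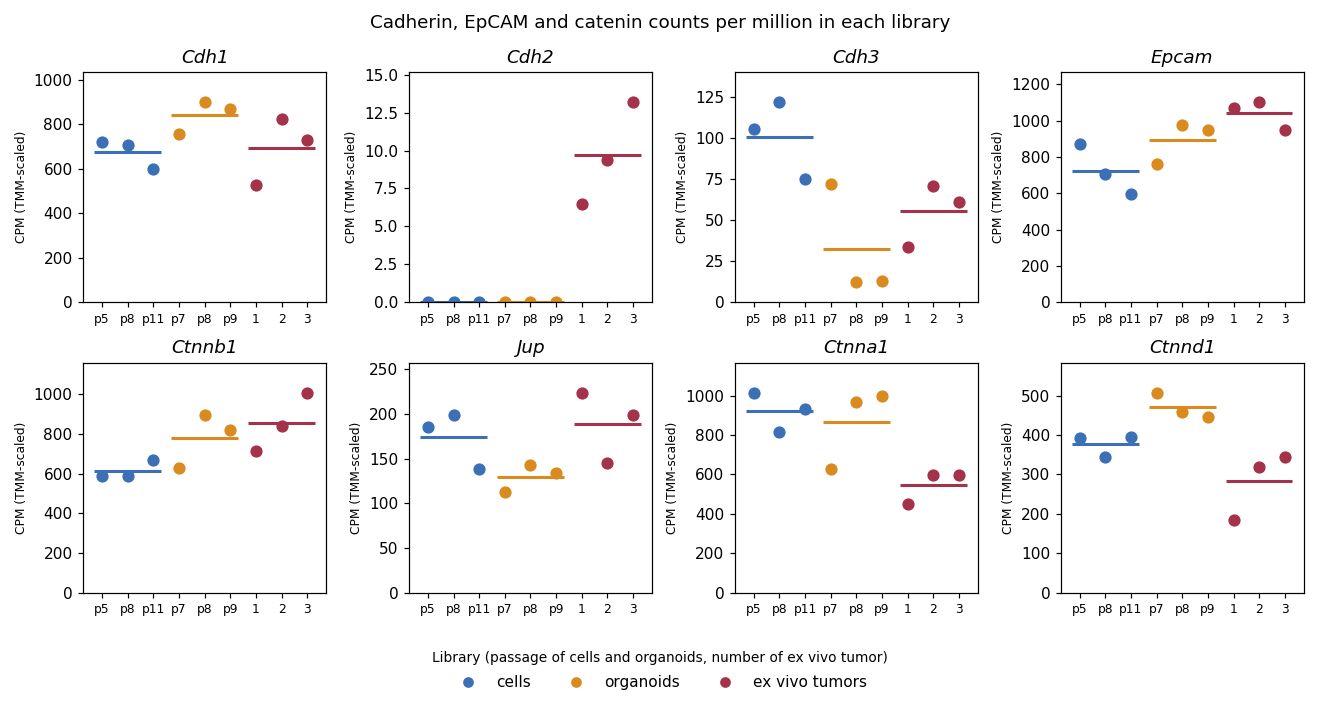
CPM (TMM-scaled, vertical axis from 0) of the 8 genes in each of the 9 libraries, with 1 point per library and a line at the mean of each sample type. Cdh2 lies at 0 in all 6 cultures and at 6.46 to 13.2 CPM in the ex vivo tumors, and Cdh3 is far lower in organoids p8 and p9 than in p7.

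Cdh1 encodes E-cadherin, the main cadherin of epithelia. Cells p5, p8 and p11 had 719, 706 and 600 CPM. The level was 757 CPM in organoid p7, 901 in p8 and 869 in p9, and 526, 822 and 731 CPM in tumors 1, 2 and 3. Every organoid library lay above every cell library, and the tumors spanned the cells and reached into the organoids. By mean the order was organoids (842 ± 75.2 CPM, SD, n = 3), ex vivo tumors (693 ± 151) and cells (675 ± 65.2), and no neighbors in this order were called. The log2 fold change was 0.32 in organoids against cells (SE 0.226, edgeR adjusted p 0.383, 95% interval -0.18 to 0.81). Against cells the tumors gave 0.04, with an edgeR adjusted p of 0.928 and a 95% interval from -0.46 to 0.53, so that an E-cadherin mRNA level from 0.728 to 1.45 times that of the cells fits the interval. The tumors against organoids gave -0.28 (edgeR adjusted p 0.386).

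Cdh2 encodes N-cadherin, the classical cadherin of neural and mesenchymal cells. It had no count in any of the 6 cultures and 85, 181 and 170 counts in ex vivo tumors 1, 2 and 3, or 6.46, 9.36 and 13.2 CPM (mean 9.68 ± 3.39, SD, n = 3). The groups did not overlap. Taken against 3 counts over the group, the mean in ex vivo tumors was at least 190-fold higher than in cells and at least 173-fold higher than in organoids. These bounds cover counting error only. The filter left Cdh2 out because its mean quantile-normalized log2 count was 2.25. With edgeR's filterByExpr, which tested 16162 genes, its adjusted p was 7.11e-05 against cells, where 28.5% of genes were called in that fit, and 8.42e-05 against organoids, where 30% were called. With no filter the edgeR adjusted p was 2.78e-10 and 4.03e-10. Cdh2 entered both of these fits through its tumor counts alone, so these p-values are a description and add no support.

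Per count of Cdh1 there were 0.0123, 0.0114 and 0.0181 counts of Cdh2 in tumors 1, 2 and 3, without correction for gene length. Beside Cdh2, the summed fibroblast, macrophage and endothelial markers were also higher in every tumor than in every culture, while the summed mesothelial markers overlapped. Msln gave most of that mesothelial sum. Wt1, Krt5, Lrrn4 and Muc16 of the same list were higher in every tumor than in every culture. Their tumor means were 7.50, 16.0, 11.4 and 2.05 CPM. The mesothelial markers Msln, Upk3b, Upk1b and Calb2 overlapped. The endothelial gene Tek went the other way against cells, at 48.2 ± 2.59 CPM in cells and 27.9 ± 4.07 in the tumors (SD, n = 3). Col1a1, a collagen chain of fibroblasts, was at 1560 to 3370 CPM in the tumors and 0.433 to 2.46 in the cultures, and Pecam1, an endothelial adhesion gene, at 42.4 to 96.9 and 0.0433 to 0.484 CPM. Zeb1, a repressor of Cdh1 that mesenchymal cells express, was at 16.3, 7.66 and 15.1 CPM in the tumors, with 2 counts over the cells and 1 over the organoids. The part of these cell types in the Cdh2 counts was not tested.

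Cdh3 encodes P-cadherin, a cadherin of basal and stratified epithelia. Cells p5, p8 and p11 had 105, 122 and 74.8 CPM. Organoids p7, p8 and p9 had 72.0, 11.9 and 12.7 CPM, so p7 lay next to the lowest cell library and was 5.80-fold above p8 and p9, which differed little from each other. Of all genes tested, 2.02% differed more between p7 and the other organoids. Ex vivo tumors 1, 2 and 3 had 33.8, 70.8 and 61.2 CPM. The organoids and the tumors were each below all cell libraries, and the organoids overlapped the tumors because of p7.

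Cdh3 was the member with the largest spread within the organoids, where its SD of log2 CPM was 1.47 against a median of 0.30 over all genes (97.9% of genes had a smaller SD). The log2 fold change was -1.64 in organoids against cells (SE 0.601, edgeR adjusted p 0.1). Without organoid p7 it was -3.07, and Cdh3 was called (edgeR adjusted p 0.00023). The tumors against cells gave -0.86 (SE 0.59, edgeR adjusted p 0.333), and without p7, which changed only the shared estimate of the spread and the scaling, -0.88 with an edgeR adjusted p of 0.0359. Against organoids the tumors gave 0.78 (SE 0.591, edgeR adjusted p 0.361), and 2.19 without p7 (edgeR adjusted p 0.000544). The size and the call of the organoid difference thus changed with p7.

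Epcam encodes the epithelial cell adhesion molecule, which is not a cadherin and is a common carcinoma marker. The cells had 874 (p5), 705 (p8) and 594 CPM (p11). The level was 761 CPM in organoid p7, 978 in p8 and 946 in p9, and 1070, 1104 and 948 CPM in tumors 1, 2 and 3. All tumors lay above all cells, and the organoids overlapped with both. Its SD of log2 CPM in the tumors was 0.12, and 11.1% of genes had a smaller one. The means were 1041 ± 82.0 CPM in ex vivo tumors, 895 ± 117 in organoids and 724 ± 141 in cells (SD, n = 3). The largest difference, ex vivo tumors against cells, was 0.52 on the log2 scale (SE 0.225, 95% interval 0.03 to 1.02, edgeR adjusted p 0.132). Organoids against cells gave 0.31 (edgeR adjusted p 0.403) and ex vivo tumors against organoids 0.22 (edgeR adjusted p 0.507), so no neighbors were called.

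Ctnnb1 encodes beta-catenin, which binds the cadherin tail and carries WNT signals to the nucleus. The cells had 589 (p5), 586 (p8) and 669 CPM (p11). Organoid p7 had 627 CPM, p8 had 897 and p9 had 823, and tumors 1, 2 and 3 had 715, 840 and 1009 CPM. All tumors were above all cells, and organoid p7 lay among the cells. The log2 fold change was 0.48 in ex vivo tumors against cells (SE 0.226, edgeR adjusted p 0.17), 0.35 in organoids against cells (edgeR adjusted p 0.343) and 0.13 in ex vivo tumors against organoids (edgeR adjusted p 0.713).

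Jup encodes plakoglobin, the close relative of beta-catenin that serves both adherens junctions and desmosomes. Cells p5, p8 and p11 had 186, 198 and 139 CPM. Organoid p7 had 112 CPM, p8 had 143 and p9 had 134, and tumors 1, 2 and 3 had 224, 145 and 198 CPM. All tumors were above all organoids, the smallest gap being 145 against 143 CPM, and the cells overlapped with both. The log2 fold change of tumors against organoids was 0.54 (SE 0.224, edgeR adjusted p 0.102). Organoids against cells gave -0.42 (edgeR adjusted p 0.241) and ex vivo tumors against cells 0.12 (edgeR adjusted p 0.753).

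Ctnna1 encodes alpha-E-catenin, the link from the cadherin complex to actin. Cells p5, p8 and p11 had 1015, 814 and 930 CPM. Organoid p7 had 627 CPM, p8 had 968 and p9 had 999. Ex vivo tumors 1, 2 and 3 had 452, 595 and 596 CPM, below all 6 cultures, with organoid p7 the nearest. The log2 fold change was -0.75 in ex vivo tumors against cells (SE 0.244, 95% interval -1.28 to -0.21, edgeR adjusted p 0.0529) and -0.66 against organoids (SE 0.244, edgeR adjusted p 0.0725). Both missed the threshold, and both kept their sign in all 17 alternatives. Ex vivo tumors against cells were called in 8 of the 17 and ex vivo tumors against organoids in 4. The highest adjusted p over the tests of these alternatives was 0.158 and 0.247. Of the fits that left out 1 library, only the one without organoid p7 called either. It called both, at -0.76 against cells (edgeR adjusted p 0.0144) and -0.82 against organoids (edgeR adjusted p 0.0119). Against cells, leaving out p7 changed only the shared estimate of the spread and the scaling. Organoids against cells gave -0.09 (edgeR adjusted p 0.846).

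Ctnnd1 encodes p120-catenin, which binds the cadherin near the membrane and keeps it at the cell surface. The level was 392 CPM in cells p5, 345 in p8 and 394 in p11. Organoid p7 had 508 CPM, p8 had 460 and p9 had 445, all above the cells. Ex vivo tumors 1, 2 and 3 had 184, 320 and 346 CPM, below all organoids and overlapping with the cells only at 346 against 345 CPM. Ex vivo tumors against organoids gave -0.73 (SE 0.245, 95% interval -1.27 to -0.20, edgeR adjusted p 0.0511), which was called in 7 of the 17 alternatives. Of the fits that left out 1 library, only the one without ex vivo tumor 3 called it (-0.90, edgeR adjusted p 0.0458). The highest adjusted p over the tests of the 17 alternatives was 0.119. Organoids against cells gave 0.32 (edgeR adjusted p 0.418) and ex vivo tumors against cells -0.41 (edgeR adjusted p 0.261).

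**Figure D2:**
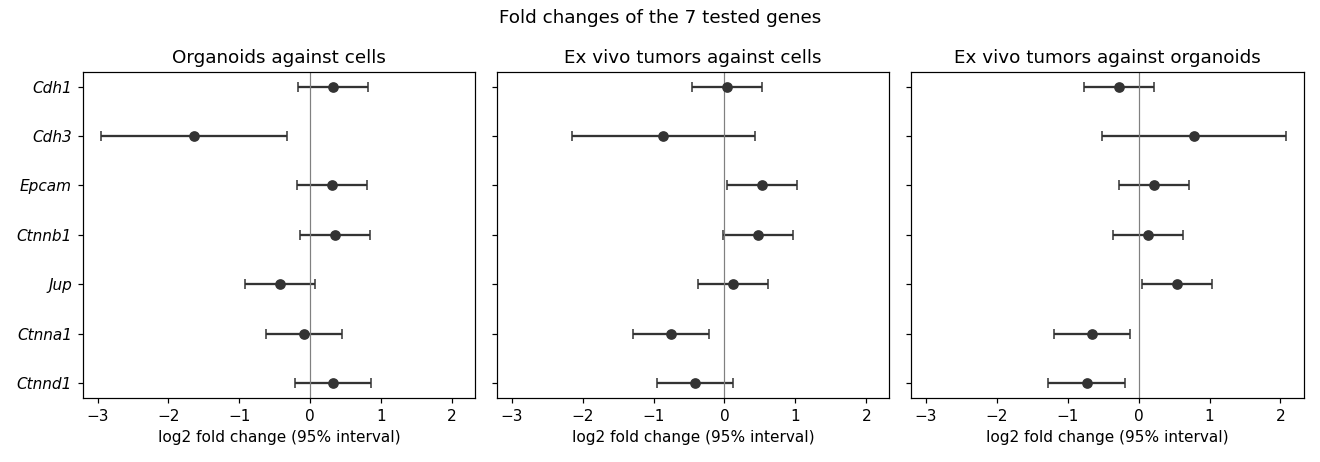
Log2 fold changes (points) with 95% intervals (bars) of the 7 genes that passed the filter, in organoids against cells, ex vivo tumors against cells and ex vivo tumors against organoids, from edgeR. Ctnna1 lies below 0 in both comparisons of ex vivo tumors (-0.75 and -0.66), and the widest intervals are those of Cdh3; none of the 7 passed an adjusted p under 0.05.

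Junction genes were also compared within a library, as log2 ratios of the counts of 2 genes, which do not depend on the scaling between libraries. Gene length enters such a ratio, so it is read between libraries only. With 3 libraries against 3 the exact permutation test cannot go below p = 0.1. The ratio of alpha-catenin to beta-catenin, chosen after the values were seen, was 1.72, 1.39 and 1.39 counts of Ctnna1 per count of Ctnnb1 in cell passages p5, p8 and p11. The organoids had 1.00 (p7), 1.08 (p8) and 1.21 (p9), and tumors 1, 2 and 3 had 0.632, 0.708 and 0.591. The 3 sample types did not overlap, with cells highest and ex vivo tumors lowest. The log2 difference was -1.22 between ex vivo tumors and cells, -0.77 between ex vivo tumors and organoids and -0.45 between organoids and cells. Each had an exact permutation p of 0.1 (two-sided, 0.129 adjusted over 9 comparisons).

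Alpha-catenin and p120-catenin were also low beside E-cadherin in the ex vivo tumors. The log2 ratio of Ctnna1 to Cdh1 had a mean of 0.44 ± 0.218 in cells, 0.01 ± 0.25 in organoids and -0.33 ± 0.126 in the tumors (SD, n = 3). They were below the cells by 0.77 without overlap (exact permutation p = 0.1), and they overlapped with the organoids (exact permutation p = 0.2) because p7 was at -0.27. For Ctnnd1 to Cdh1 the means were -0.84 ± 0.216, -0.84 ± 0.225 and -1.32 ± 0.222, and the tumors were below both cultures without overlap, by 0.48 each (exact permutation p = 0.1, 0.129 adjusted over 9 comparisons). Both ratios were added after the values were seen.

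Per count of Cdh1 there were 1.21, 0.999 and 0.99 counts of Epcam in the cell passages p5, p8 and p11, and 1.00, 1.09 and 1.09 in organoid p7, p8 and p9. Tumors 1, 2 and 3 had 2.03, 1.34 and 1.30. The tumors were above both cultures, with tumor 1 far above the others. The log2 difference was 0.52 against cells and 0.53 against organoids, and 0.31 and 0.32 without tumor 1 (exact permutation p = 0.1 with all 3 tumors, 0.157 adjusted over 11 comparisons). Cdh3 to Cdh1 was lower in organoids than in cells by 2.47, or by 3.39 without p7, and in ex vivo tumors than in cells by 0.92 on the log2 scale, both without overlap (exact permutation p = 0.1). Jup to Ctnnb1 was lower in organoids than in cells by 0.75, again without overlap (exact permutation p = 0.1), and tumor 1, at 0.314 counts of Jup per count of Ctnnb1, lay among the cells while tumors 2 and 3 (0.172 and 0.197) lay below all of them.

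**Figure D3:**
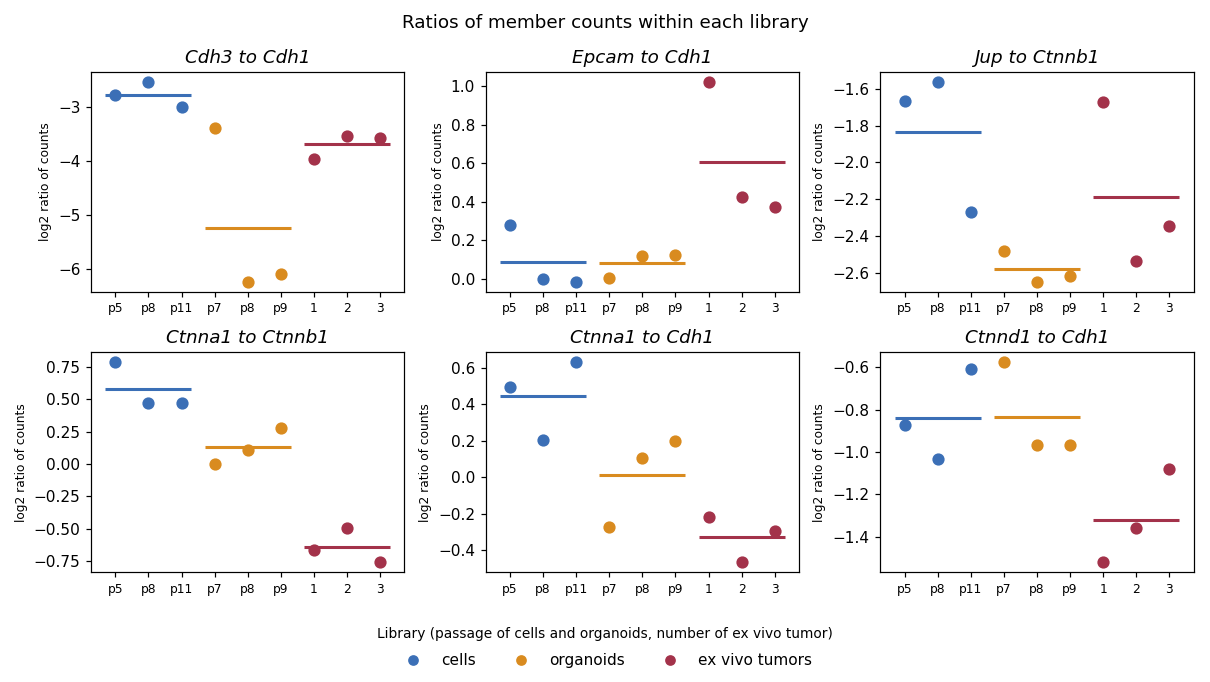
Log2 ratio of the counts of 2 genes within each of the 9 libraries, for 6 pairs, with 1 point per library and a line at the mean of each sample type; the vertical axes differ and do not start at 0. The ratio of Ctnna1 to Ctnnb1 falls into 3 separate ranges, with means of 0.58 in cells, 0.13 in organoids and -0.64 in the tumors.

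Related junction genes were counted by list. Among 19 other classical and related cadherins, 3 passed the filter. Cdh17, the cadherin of intestinal epithelium and the most expressed of the 3 (here and for each list, by mean CPM over all 9 libraries), was at 27.4 ± 10.6 CPM in cells, 243 ± 44.6 in organoids and 144 ± 15.3 in the tumors (SD, n = 3). It rose by 3.14 in organoids (SE 0.308, edgeR adjusted p 0.000358) and by 2.39 in ex vivo tumors (SE 0.299, edgeR adjusted p 0.000173) against cells on the log2 scale. Cdh5, the cadherin of endothelium and itself on the endothelial marker list, rose by 4.62 in ex vivo tumors against cells (edgeR adjusted p 4.27e-05) and by 5.62 against organoids (edgeR adjusted p 1.8e-05). Cdh11, a cadherin of mesenchymal cells that the filter left out and that was picked after its values were seen, had the pattern of Cdh2. It had no count in the cultures and 28.3 ± 14.9 CPM in ex vivo tumors, at least 554-fold above cells and 504-fold above organoids. The part of host tissue in the tumor levels of Cdh5 and Cdh11 was not tested. Of 7 other catenins and relatives, 4 passed the filter, with Pkp4, a p120 relative, the most expressed. edgeR called none in any comparison, also at an unadjusted p under 0.05. DESeq2 called none either, and weighted limma-voom called 2 lower in organoids than in cells and 1 higher in ex vivo tumors than in organoids.

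Actin linkers of the junction, a list of 12 genes that were all tested, fell in part in the ex vivo tumors. Against cells edgeR called 5 lower and none higher, with a median log2 fold change of -0.67, and against organoids 3 lower and none higher (median -0.45). Of all genes tested, 6.78% were called lower against cells and 10.5% against organoids. Tjp1, the scaffold ZO-1, fell by 1.50 against cells (SE 0.394, edgeR adjusted p 0.0208) and by 1.37 against organoids (edgeR adjusted p 0.0279). Actn1, an actin crosslinker, fell by 1.12 against cells (edgeR adjusted p 0.0388), and Plekha7, which ties p120-catenin to microtubules, by 0.88 against organoids (edgeR adjusted p 0.0287). The other calls, named after their values were seen, were Plekha7, Vcl and Shroom3 against cells and Shroom3 against organoids. Actn4, the most expressed of the list, had a log2 fold change of -0.67 against cells (edgeR adjusted p 0.0826). The count against cells rested on single libraries: it was 0 without cells p8, 1 without cells p5, 2 without ex vivo tumor 1 or 2, 3 without cells p11 or ex vivo tumor 3, and 7 without organoid p7, and it was 3 with housekeeping scaling. Tjp1 and Actn1 were both lost without cells p5 or p8, and Actn1 also without any of the tumors (edgeR adjusted p 0.0569 to 0.157). Against organoids the count was 1 without organoid p8, organoid p9 or ex vivo tumor 2, fits in which Tjp1 and Plekha7 were lost (edgeR adjusted p 0.0531 to 0.0918). Between organoids and cells edgeR called none of the 12, with 2 lower at an unadjusted p under 0.05, and DESeq2 and weighted limma-voom each called 2 lower.

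Nectins start junctions beside the cadherins, and afadin ties them to actin. Of 6 genes in this list, 5 were tested. Nectin3 was at 37.7 ± 8.71 CPM in cells, 93.1 ± 31.6 in organoids and 14.3 ± 4.02 in the tumors (SD, n = 3). It fell by 1.40 in ex vivo tumors against cells (edgeR adjusted p 0.00894) and by 2.71 against organoids (edgeR adjusted p 0.000146), and both calls held without any single library. Its rise of 1.30 in organoids against cells (edgeR adjusted p 0.0223) was lost without cells p5, p8 or p11 or organoid p8 or p9, where the edgeR adjusted p was 0.0516 to 0.0891. Afdn, which encodes afadin and was the most expressed of the list, fell by 0.82 in ex vivo tumors against organoids (edgeR adjusted p 0.0347). That call was lost in 6 of the 9 fits that left out 1 library, namely those without cells p5 or p8, organoid p8 or p9, or ex vivo tumor 1 or 2 (edgeR adjusted p 0.0522 to 0.113).

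Of 12 desmosome genes, 9 were tested. Dsg3, a desmoglein of stratified epithelia, was at 0.587 ± 0.586 CPM in cells, 0.0793 ± 0.0469 in organoids and 11.6 ± 1.71 in the tumors (SD, n = 3). It rose by 4.24 in ex vivo tumors against cells (edgeR adjusted p 0.00038) and by 7.14 against organoids (edgeR adjusted p 5.77e-05). Dsg3 had 38 counts over the cells, 4 over the organoids and 516 over the tumors. It passed the filter through the tumors, so this rise is a description. The part of host tissue in its tumor level was not tested. Pkp1, a desmosomal plaque protein, fell by 1.41 in organoids (edgeR adjusted p 0.0446) and by 1.43 in ex vivo tumors (edgeR adjusted p 0.0276) against cells, from 708 ± 152 CPM in cells to 266 ± 131 and 264 ± 86.5. Against organoids, the ex vivo tumors were lower in Dsp, which encodes desmoplakin and had the highest mean CPM of the list over all 9 libraries (by 1.29, edgeR adjusted p 0.0208), and in Perp (by 0.77, edgeR adjusted p 0.0196). The calls of Pkp1 in organoids and of Dsg3, which was also lower there than in cells (edgeR adjusted p 0.0446, on 4 counts over the organoids), were lost in 7 and 8 of the 9 fits that left out 1 library. The exceptions were the fits without organoid p7 and without ex vivo tumor 1 for Pkp1 and without cells p11 for Dsg3, and the highest edgeR adjusted p was 0.16 and 0.198. Pkp1 in ex vivo tumors was lost without cells p5, cells p8, tumor 2 or tumor 3 (edgeR adjusted p up to 0.104). Dsp and Perp were lost without organoid p8 or p9 or ex vivo tumor 2, Dsp also without tumor 1 and Perp also without tumor 3 (edgeR adjusted p up to 0.0968).

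Among 8 partners of EpCAM, all tested, 4 rose in organoids against cells and none fell, with a median log2 fold change of 0.69. Of all genes tested, 6.44% were called higher and 4.29% lower in this comparison. Tspan8, a tetraspanin, rose by 1.14 in organoids (edgeR adjusted p 0.0126) and by 1.27 in ex vivo tumors (edgeR adjusted p 0.00308) against cells and had the highest mean CPM of the list over all 9 libraries. Spint1 and Cldn7 were also called in organoids and were named after their values were seen. Spint1 was lost without cells p8 or organoid p8 (edgeR adjusted p 0.063 and 0.0541), and Cldn7 in 7 of the 9 fits that left out 1 library (edgeR adjusted p 0.066 to 0.18), all but those without organoid p7 and ex vivo tumor 1. Cldn1, a claudin, fell by 1.42 in ex vivo tumors against cells (edgeR adjusted p 0.00694). The calls of Tspan8 and Cldn1 in ex vivo tumors held without any single library. The count of 4 in organoids was 1 without cells p8 or organoid p8 and 2 without cells p5, and Tspan8 was lost in all 3 of these fits (edgeR adjusted p 0.0509 to 0.0734).

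Of 14 genes of cadherin cleavage and turnover, 13 were tested, and Ptprf, a receptor phosphatase, was the most expressed. Adam15, a membrane protease that can cut E-cadherin in human cells, was at 30.5 ± 4.87 CPM in cells, 60.7 ± 5.27 in organoids and 99.4 ± 13.8 in the tumors (SD, n = 3). It rose by 1.71 in ex vivo tumors against cells (edgeR adjusted p 0.000103), a call that held without any single library, and by 0.99 in organoids against cells (edgeR adjusted p 0.00994). Mmp7, a protease of epithelial cells, rose by 3.44 in organoids (edgeR adjusted p 0.0298) and 3.74 in ex vivo tumors (edgeR adjusted p 0.0117) against cells. It had 39 counts over the cells (0.703 ± 0.813 CPM), 440 over the organoids and 425 over the tumors. Mmp7 passed the filter through the organoids and the tumors, so these rises are a description. Its organoid level was 7.51 ± 8.01 CPM, and without p7 the log2 fold change was 2.04. The organoid calls of Mmp7 and Adam15 were lost without cells p5 or p8 (edgeR adjusted p 0.0529 to 0.126), and that of Mmp7 in ex vivo tumors without cells p5 (edgeR adjusted p 0.0584). Psen2, a presenilin, was called higher in ex vivo tumors against cells and organoids, by 0.76 each (edgeR adjusted p 0.0429 and 0.0391). These calls were lost in 7 and 6 of the 9 fits that left out 1 library. Against organoids Adam15 also rose by 0.71 (edgeR adjusted p 0.0231), and Cbll1, which encodes the ubiquitin ligase Hakai that targets E-cadherin, fell by 0.76 (edgeR adjusted p 0.0287). Both were lost without organoid p8 or p9 or ex vivo tumor 1, and Adam15 also without tumor 3 (edgeR adjusted p up to 0.11).

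The complex that marks beta-catenin for destruction, a list of 9 genes all tested, had 1 call in ex vivo tumors against cells, a rise. Over all genes tested, 12.4% were called higher in this comparison and 6.78% lower, so the count is not read as a result about the list. Axin2, which is also a target of WNT signaling, rose from 100.1 ± 16.8 CPM in cells to 242 ± 87.7 in ex vivo tumors, by 1.27 on the log2 scale (SE 0.278, edgeR adjusted p 0.00785), and the organoids were at 171 ± 24.3 CPM (SD, n = 3). Against organoids Axin1 rose by 0.69 in ex vivo tumors (edgeR adjusted p 0.0137) and Gsk3b, the kinase of the complex, fell by 1.13 (edgeR adjusted p 0.0146), and both calls were lost without organoid p8 or p9 (edgeR adjusted p 0.0532 to 0.0623). Csnk1a1, a kinase and the most expressed gene of the list, was not called in any comparison. Between organoids and cells edgeR and DESeq2 called none of the 9 (1 higher at an unadjusted p under 0.05 in edgeR). Weighted limma-voom, which called many more of all genes than edgeR did, called 2 higher and 2 lower.

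Of 8 repressors of Cdh1, 4 were tested and 4 were left out by the filter. Zeb2, Snai1 and Twist1 had 12 to 55 counts over the 3 libraries of each culture type and passed the filter through the tumors, so their number is not read as a result about the list. Zeb2 was at 0.254 ± 0.0823 CPM in cells, 0.343 ± 0.126 in organoids and 20.4 ± 12.3 in the tumors (SD, n = 3). It rose by 6.28 against cells (edgeR adjusted p 1.61e-05) and by 5.84 against organoids (edgeR adjusted p 2.44e-05), and Snai1 by 5.63 (edgeR adjusted p 5.03e-05) and 4.46 (edgeR adjusted p 0.000173). Twist1, named after its values were seen, was also called higher in the tumors, at 0.95 ± 0.285, 0.343 ± 0.126 and 4.22 ± 1.97 CPM. The calls of all 3 genes against both cultures held without any single library. This is a description and no added support, since the filter let these genes in through the tumors. Of the 4 genes left out, Zeb1 is given above, and Snai2, Twist2 and Klf8 had no count in the cultures and 38, 43 and 7 counts over the tumors. Tcf3, which encodes E2A proteins and had the highest mean CPM of the list over all 9 libraries, had a log2 fold change of -0.26 against cells (edgeR adjusted p 0.493). Cdh1 was at 526 to 822 CPM in the tumors and 600 to 719 in the cells, and Epcam at 948 to 1104 and 594 to 874 CPM. Whether the repressors act on either gene in these samples was not tested. The summed fibroblast, macrophage and endothelial markers had the same split between tumors and cultures, and their part in the repressor levels was not tested. Between organoids and cells edgeR called none of the 4, with 2 lower at an unadjusted p under 0.05, while DESeq2 called 1 lower and weighted limma-voom 2 lower.

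**Figure D4:**
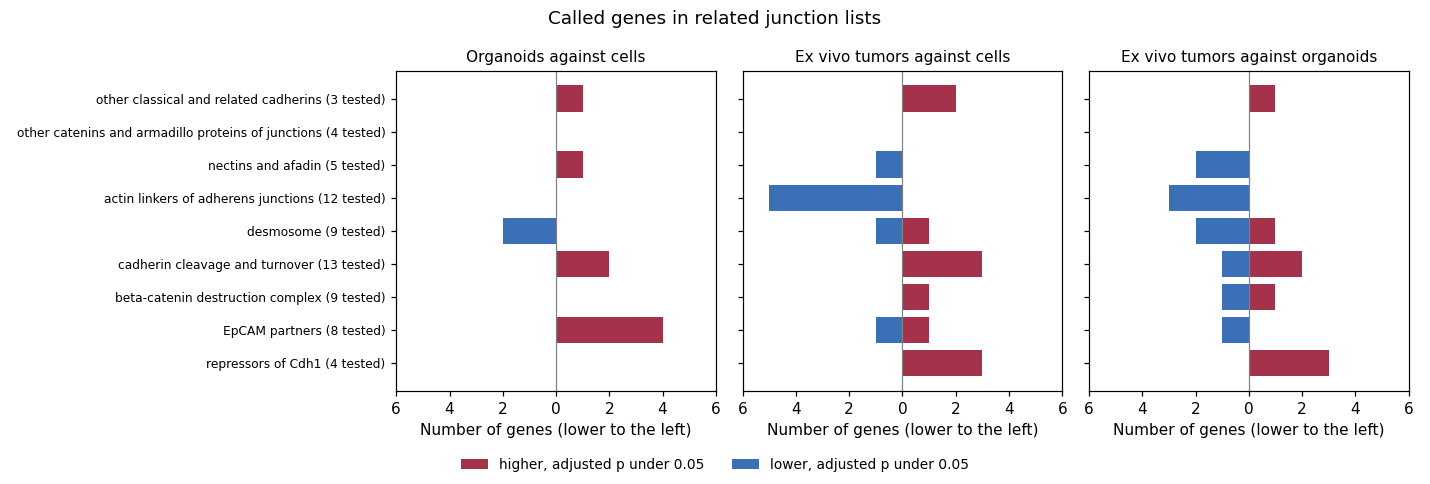
Number of genes called higher (bars to the right) or lower (bars to the left) at an edgeR adjusted p under 0.05 in 9 lists of junction genes, with the number tested beside each list name, for the 3 comparisons. Actin linkers are called lower in both comparisons of ex vivo tumors (5 and 3 of 12) and not between organoids and cells in this fit, counts that change when single libraries are left out, and 4 of 8 EpCAM partners are called higher in organoids against cells. Over all genes tested, 6.78% were called lower in ex vivo tumors against cells and 10.5% against organoids. In organoids against cells 6.44% were called higher. Dsg3, Zeb2, Snai1 and Twist1, called higher in ex vivo tumors, passed the filter through the tumors. Mmp7, called higher in organoids and in ex vivo tumors against cells, passed it through those 2 sample types.

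For each tested member, the 2 other genes with the most similar log2 CPM were looked up over the 9 libraries. The points share their sample type, and the values are a description. Ctnna1 was most like Xpot, a tRNA exporter (Pearson's r = 0.992), and Wnt5a, a WNT ligand (0.989), and Ctnnd1 was most like Ltn1, a ubiquitin ligase of stalled ribosomes (0.992), and Snx4, a sorting nexin (0.988). Wnt5a was at 183, 133 and 174 CPM in cells, 86.6, 197 and 192 CPM in organoids and 55.8, 94.2 and 94.6 CPM in the tumors, so it shared with Ctnna1 the low value of organoid p7 and the low tumors. Cdh3 was most like Oscp1 (0.985) and Nup133, a nuclear pore protein (0.978), which at 99.8, 50.3 and 56.1 CPM in organoids p7, p8 and p9 was also highest in p7. The others were Usp48 (0.962) and Bicd1 (0.951) for Cdh1, LOC120095179 (0.978) and Map1lc3b (0.977) for Epcam, Slc36a1 (0.959) and Fblim1 (0.958) for Ctnnb1, and Phf23 (0.962) and Ccng1 (0.946) for Jup.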

How the data were processed

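Messenger RNA of the line in its 3 growth forms was sequenced, giving 9 libraries. Per the labels and the paper's methods, the authors checked reads with FastQC 0.11.9 and MultiQC 1.9, trimmed 11 bases and bases under a Phred score of 20 with Cutadapt 1.18, aligned to mRatBN7.2 with STAR 2.7.4 and counted reads per gene. The deposited values are these whole-number counts. The annotation and strand setting are not stated in what was read here. Ctnna1 and Jup may each overlap other genes, and whether reads of such genes entered their counts was not tested. Coordinates of the promoter are those of RefSeq (GRCr8), not of the authors' build.

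Genes with a mean quantile-normalized log2(count + 1) of at least 4 were kept (13331). Counts were scaled by TMM, fitted with 1 mean per sample type over all 9 libraries (edgeR 4.0.16, limma 3.58.1, R 4.3.3; 6 residual degrees of freedom) and compared by two-sided quasi-likelihood tests with p-values adjusted over all genes by Benjamini and Hochberg and a threshold of 0.05. Dividing the log2 fold change by the root of F gave its standard error. Ratios used a pseudocount of 0.5 and exact permutation tests in SciPy 1.17.1. Text names all 8 members, up to 2 rises and 2 falls per list and comparison, each list's most expressed tested gene (by mean CPM over all 9 libraries, not per length), 2 genes most like each member, and Krt8, Cdx2, Col1a1, Pecam1, Cdh5, Msln, Ptprc and Zeb1. A gene that this rule takes is not reported here. Members and lists were chosen with earlier results of these data known. On simulated counts of 13331 genes with 200 changed, 20%, 15% and 21% of 2-fold and 86%, 88% and 81% of 4-fold changes were recovered for organoids against cells, ex vivo tumors against cells and ex vivo tumors against organoids. Alternatives were DESeq2 1.42.0 (its size factors in edgeR, and its own test), limma-voom with library weights, quantile normalization with limma, housekeeping scaling (17 genes), no filter, filterByExpr, only the 6 libraries compared, fits without 1 library and a ratio pseudocount of 5. Plots used matplotlib 3.10.9 (Python 3.11.15).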

Additional observations from a re-analysis of the deposited data

How the results depend on the processing

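Of 357 fold changes of the 7 members under the alternatives, 309 kept their direction and their side of the threshold, 35 became called and 13 changed sign; none of the main values was called. The number of all genes called was 1431 in organoids against cells, and 2360 with DESeq2, 7159 with weighted limma-voom, 899 with only the 6 libraries compared and 527 to 3411 with 1 library left out. In ex vivo tumors against cells it was 2554, and 4312 with weighted limma-voom, 4108 with quantile normalization, 5771 with no filter, 4606 with filterByExpr and 1617 to 3625 with 1 library left out. In ex vivo tumors against organoids it was 3027, and 7547, 6036 and 4841 with weighted limma-voom, no filter and filterByExpr and 1702 to 4801 with 1 library left out. Of the 7 members, organoids against cells had 1 called with DESeq2, 5 with weighted limma-voom, 1 with no filter and 0 to 1 with 1 library left out. Ex vivo tumors against cells had 4 with weighted limma-voom, 1 each with DESeq2 size factors, DESeq2, quantile normalization, no filter, filterByExpr and only the 6 libraries compared, and 0 to 2 with 1 library left out. Ex vivo tumors against organoids had 4 with weighted limma-voom, 2 each with DESeq2 and housekeeping scaling, 1 each with DESeq2 size factors, quantile normalization, no filter and filterByExpr, and 0 to 2 with 1 library left out. Among signs that changed, Ctnna1 in organoids against cells was 0.15 with weighted limma-voom, 0.049 with housekeeping scaling and -0.21 to 0.065 with 1 library left out. In ex vivo tumors against cells, Cdh1 was -0.049 with no filter, -0.018 with filterByExpr and -0.10 to 0.19 with 1 library left out, and Jup was -0.037 with weighted limma-voom and -0.040 to 0.28 with 1 library left out. Ctnnb1 in ex vivo tumors against organoids was -0.032 with housekeeping scaling and -0.0092 to 0.25 with 1 library left out. Between organoids and cells the log2 ratio of Epcam to Cdh1 was -0.057 to 0.091 and that of Ctnnd1 to Cdh1 -0.13 to 0.12 with 1 library left out. The cause of these changes was not tested. Of the genes called in ex vivo tumors against cells, 64.6% were higher, and 32% with quantile normalization, which moved the median of all genes to -0.26; against organoids it was 53.9%, and 32.4% with quantile normalization (median -0.21) and 43.6% with housekeeping scaling (median -0.14). In organoids against cells it was 60%, and 71% with housekeeping scaling (median 0.16). No paired analysis was possible because the sample types share fewer than 2 replicate numbers and the labels name no pairing. With 3 libraries per type, few 2-fold changes of the simulated counts were recovered, so the size that a member's data allow is read from its interval and not from the missing call. The simulation changed 200 genes, fewer than edgeR called in any main comparison, so its recovery can differ from that in the data.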
